A study of Mus musculus with 12 samples.

Results

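Gene expression in the liver of wild type (WT, Esr1+/+) female mice on a high-fat diet was compared with that of wild type females on a normal diet, by the genotype and diet in the sample labels. These were 6 of the 12 samples of the study, with 3 on each diet and 1 array per sample. All mice were adult females of a B6.129 background. The normal diet was NIH-31diet, and the high-fat diet was research diet #12492, in which fat gave 60% of the kilocalories. Feeding lasted 2 weeks. The remaining 6 samples came from aERKO females, labelled KO (Esr1-/-), with 3 on each of the same diets; they entered here through the estimate of the spread and through the comparison of diet effects between genotypes. The labels name no allele beyond these, do not say whether the diets matched in ingredients other than fat, and do not say whether a sample was 1 animal or a pool. The diets are therefore compared as a whole. The p-values set a difference between groups against the spread of samples within groups, and that spread may be technical.

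The liver takes up fatty acids from the blood, makes them from carbohydrate, stores them as triglyceride in lipid droplets, burns them in mitochondria and peroxisomes, and exports them in lipoproteins. Synthesis is known to be driven by the transcription factors SREBP1c, ChREBP and the oxysterol receptors LXR, and oxidation by PPAR alpha, a receptor that binds fatty acids. The same cells make bile acids, taurine, creatine and most plasma proteins, and remove drugs and foreign compounds with cytochromes, carboxylesterases and glutathione transferases.

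The promoters of the 4 genes that were called in the same direction on high-fat diet in both genotypes are shown here, since they are the genes whose response was called more than once. Each is a RefSeq window on GRCm38.p6, from 250 bases before to 50 bases after the gene's start, read 5' to 3' on the gene's strand. They are Ces2a at chr8:104733753-104734052 (+ strand), Pltp at chr2:164857659-164857958 (- strand), Gamt at chr10:80260963-80261262 (- strand) and Tlcd2 at chr11:75467800-75468099 (+ strand). Capitals mark matches, on either strand, to the 7 motifs searched.

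Ces2a: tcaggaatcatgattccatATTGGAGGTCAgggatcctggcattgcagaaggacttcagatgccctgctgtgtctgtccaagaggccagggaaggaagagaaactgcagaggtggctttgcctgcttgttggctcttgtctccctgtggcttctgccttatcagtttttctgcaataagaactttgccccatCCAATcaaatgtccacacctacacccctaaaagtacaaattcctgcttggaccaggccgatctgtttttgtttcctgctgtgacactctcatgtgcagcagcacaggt
Pltp: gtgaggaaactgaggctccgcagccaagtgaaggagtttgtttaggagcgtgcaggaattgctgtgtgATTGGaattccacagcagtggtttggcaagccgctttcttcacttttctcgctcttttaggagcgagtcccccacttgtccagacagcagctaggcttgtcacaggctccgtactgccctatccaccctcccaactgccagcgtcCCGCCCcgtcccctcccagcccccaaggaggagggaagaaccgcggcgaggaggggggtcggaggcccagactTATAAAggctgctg
Gamt: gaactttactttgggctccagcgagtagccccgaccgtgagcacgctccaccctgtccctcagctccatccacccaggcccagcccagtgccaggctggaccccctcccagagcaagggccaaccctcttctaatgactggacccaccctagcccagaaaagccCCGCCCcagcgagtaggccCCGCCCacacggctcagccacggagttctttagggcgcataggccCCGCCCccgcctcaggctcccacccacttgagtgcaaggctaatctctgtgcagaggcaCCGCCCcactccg
Tlcd2: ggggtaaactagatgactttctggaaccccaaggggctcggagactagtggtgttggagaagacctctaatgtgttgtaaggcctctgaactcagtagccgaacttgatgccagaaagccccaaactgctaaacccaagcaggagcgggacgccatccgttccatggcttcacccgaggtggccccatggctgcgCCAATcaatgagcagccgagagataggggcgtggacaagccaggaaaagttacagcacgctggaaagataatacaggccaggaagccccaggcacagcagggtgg

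The 7 motifs were the CCAAT box (CCAAT, in 37.4% of the 32851 windows of this kind), the E-box (CACGTG, 7.15%), the core of a sterol regulatory element (TCACCCCAC, 0.551%), the GC box (GGGCGG, 35.7%), the TATA box (TATAAA, 13.6%), the core of an antioxidant response element (TGACNNNGC, 12.4%) and a nuclear receptor half-site (AGGTCA, 16.3%). The Ces2a window held a CCAAT box from -58 to -54 and an opposite-strand CCAAT box from -231 to -227 that runs directly into a half-site from -226 to -221. The Pltp window held 1 CCAAT box, 1 GC box and, after the start, TATAAA from 37 to 42. The Gamt window held 4 GC boxes, at -86, -67, -22 and 38, and no other match. The Tlcd2 window held a CCAAT box from -55 to -51. These are matches of letters and say nothing of binding. Of the 9 genes that passed the test in wild type, 8 had windows in the table, and Scd1 was not among them.

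Depth on an array is set by its signal, and the 6 wild type arrays were alike in most respects. The measure is the MAS5 signal, a linear intensity per probe set that had been scaled so that its trimmed mean was 500 on each array. Median signals ran from 82.3 to 114, the highest on WT normal replicate 3, and correlations of log2 values were 0.945 to 0.972 within the diet groups and 0.954 to 0.970 between them. Ratios of 3' to 5' probe sets are a sign of RNA integrity. For Gapdh the ratio was 0.829 on WT normal replicate 3 and 0.629 to 0.672 on the other wild type arrays. For actin it was 1.78 to 2.25. Hepatocyte markers were bright: Alb, the main plasma protein, had signals of 68660, 68870 and 81701 on normal diet, against 53466, 65570 and 57356 on high-fat diet, and Esr1, the gene deleted in the knockout, gave 1963 to 3930 on these 6 arrays and 586 to 885 on the knockout arrays.

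Arrays differed most in transcripts of the exocrine pancreas, which lies beside the liver and makes digestive enzymes. Of 23 acinar cell genes on the array, 22 lay above the array's median signal on WT normal replicate 2, 22 on WT high-fat replicate 3 and 18 on WT high-fat replicate 2, against 3, 4 and 5 on WT normal replicate 1, WT normal replicate 3 and WT high-fat replicate 1. Their summed signal was 1449, 205338 and 1845 on normal diet, against 2109, 14417 and 80538 on high-fat diet. Cpa1, which encodes a pancreatic carboxypeptidase, had signals of 7.9, 12930 and 7.3 on normal diet, against 2.8, 1105 and 5340 on high-fat diet. Both diet groups thus held arrays with and without these transcripts, and the groups overlapped. Among all 18194 named genes, 20 were at least 4-fold higher on WT normal replicate 2 and WT high-fat replicate 3 than on each of the 3 low arrays. Of these 20, 17 were in the acinar list and 18 were also higher on WT high-fat replicate 2 than on those 3. All 20 were at least 4-fold higher on aERKO normal replicate 1 than on the other knockout arrays of that diet. The number called for diet was 0, which the selection settled beforehand, since each gene had high and low arrays on both diets. Ins2, an islet hormone, reached 565 on WT normal replicate 2 and 30 to 132 on the other 5. Skeletal muscle genes averaged a log2 signal of 6.77 on WT normal replicate 3 and 5.56 to 5.93 on the other 5.

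**Figure D1:**
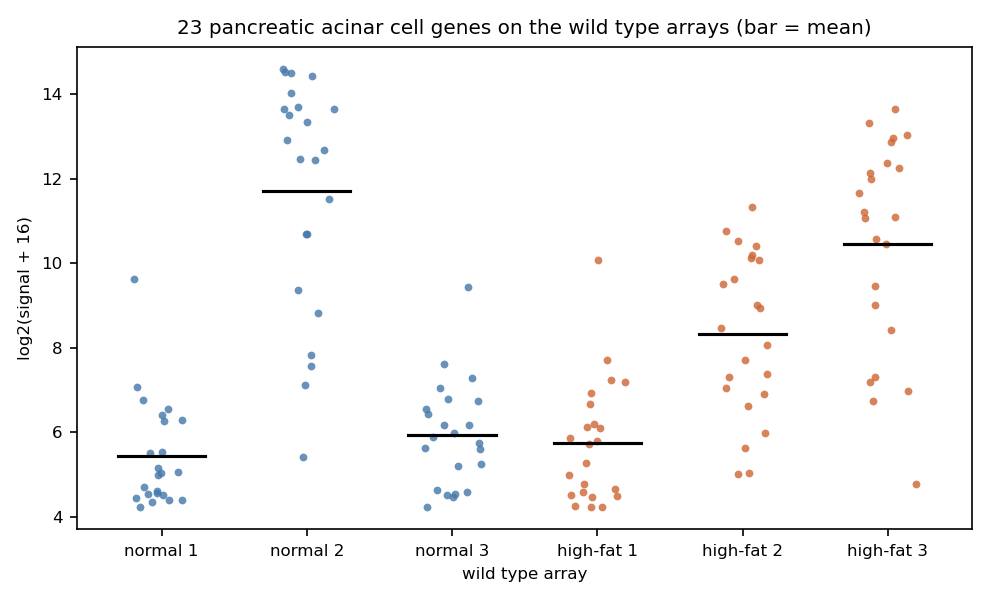
Log2(signal + 16) of 23 pancreatic acinar cell genes on each wild type array, 1 point per gene, with the mean as a bar. The means are 5.44, 11.7 and 5.94 on normal diet, against 5.75, 8.34 and 10.5 on high-fat diet, so that arrays with high values occur on both diets.

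High-fat diet changed 9 genes in wild type liver past the threshold, 7 lower and 2 higher. Those that fell act in ester hydrolysis (Ces2a), phospholipid transfer (Pltp), taurine synthesis (Csad), binding of acyl-CoA (Dbi), retinol oxidation (Rdh16), glutathione conjugation (Gstm1) and fatty acid desaturation (Scd1). Those that rose act in creatine synthesis (Gamt) and membrane phospholipid composition (Tlcd2). They are 0.0734% of the 12264 genes tested, or 0.0163% higher and 0.0571% lower, by limma's moderated test with Benjamini-Hochberg adjustment over all genes and a threshold of 0.05. For all 9 the samples of the diets did not overlap, as was so for 14.3% of genes tested (7.03% higher and 7.31% lower). Without adjustment 1015 genes (8.28%) had p under 0.05. In bulk liver a change in the number of cells of a type and a change in RNA per cell cannot be told apart, here and below.

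Scd1, the stearoyl-CoA desaturase that makes monounsaturated fatty acids, had signals of 60662, 64080 and 55306 on normal diet, against 21181, 13222 and 33766 on high-fat diet. All high-fat samples lay below all normal samples, and they differed among themselves more than the normal samples did. The log2 difference was -1.50 ± 0.24 (SE, n = 3 on each diet), a 2.83-fold lower level, with an adjusted p of 0.0382. A dimmer probe set of Scd1 differed by -1.83. Pltp, the phospholipid transfer protein of plasma lipoproteins, gave 4583, 5552 and 5032 on normal diet against 1933, 1527 and 2136. The samples of each diet lay close together, and the level was 2.71-fold lower (log2 difference -1.44 ± 0.18, adjusted p = 0.00742). Its other probe set differed by -1.68. Dbi, a small protein that binds acyl-CoA esters, gave 39512, 37297 and 35273 on normal diet, against 24161, 21398 and 24861 on high-fat diet. It was bright on every array and was 1.59-fold lower (log2 difference -0.67 ± 0.09, adjusted p = 0.0136). All 4 of its probe sets had the same sign, with the smallest at -0.057.

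Ces2a, a carboxylesterase of the endoplasmic reticulum, gave 8265, 7421 and 6814 on normal diet, against 3065, 3394 and 3501 on high-fat diet. It had the lowest p of all genes tested, at a log2 difference of -1.17 ± 0.12 (2.25-fold lower, adjusted p = 0.00263). Gstm1, a mu class glutathione transferase, gave 18615, 20096 and 19841 against 12163, 10452 and 13152. Its groups were apart on a level that was high throughout, with a log2 difference of -0.72 ± 0.12 (adjusted p = 0.0382), and all 4 of its probe sets had the same sign. Near-identical mu class genes can bind each other's probes, so the values of single members are uncertain. Rdh16, a microsomal retinol dehydrogenase, gave 4966, 4529 and 4552 against 2946, 2709 and 3227. It was 1.58-fold lower (log2 difference -0.66 ± 0.10, adjusted p = 0.0260), with a narrow spread on both diets.

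Csad, which decarboxylates cysteine sulfinic acid on the way to taurine, gave 6441, 6394 and 10320 on normal diet, against 1691, 2724 and 1638 on high-fat diet. It had the largest change of the 9, a 3.81-fold lower level (log2 difference -1.93 ± 0.26, adjusted p = 0.0136), and WT normal replicate 3 lay above its group. Gamt, the methyltransferase that completes creatine, gave 2608, 2510 and 1732 on normal diet, against 4038, 4149 and 4417 on high-fat diet. The high-fat samples were close together and all higher, 1.86-fold on average (log2 difference 0.90 ± 0.14, adjusted p = 0.0260). Tlcd2, a membrane protein that affects phospholipid composition, gave 3626, 3557 and 3075 against 5607, 6137 and 6326. It rose 1.76-fold (log2 difference 0.82 ± 0.14, adjusted p = 0.0472), with no overlap.

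**Figure D2:**
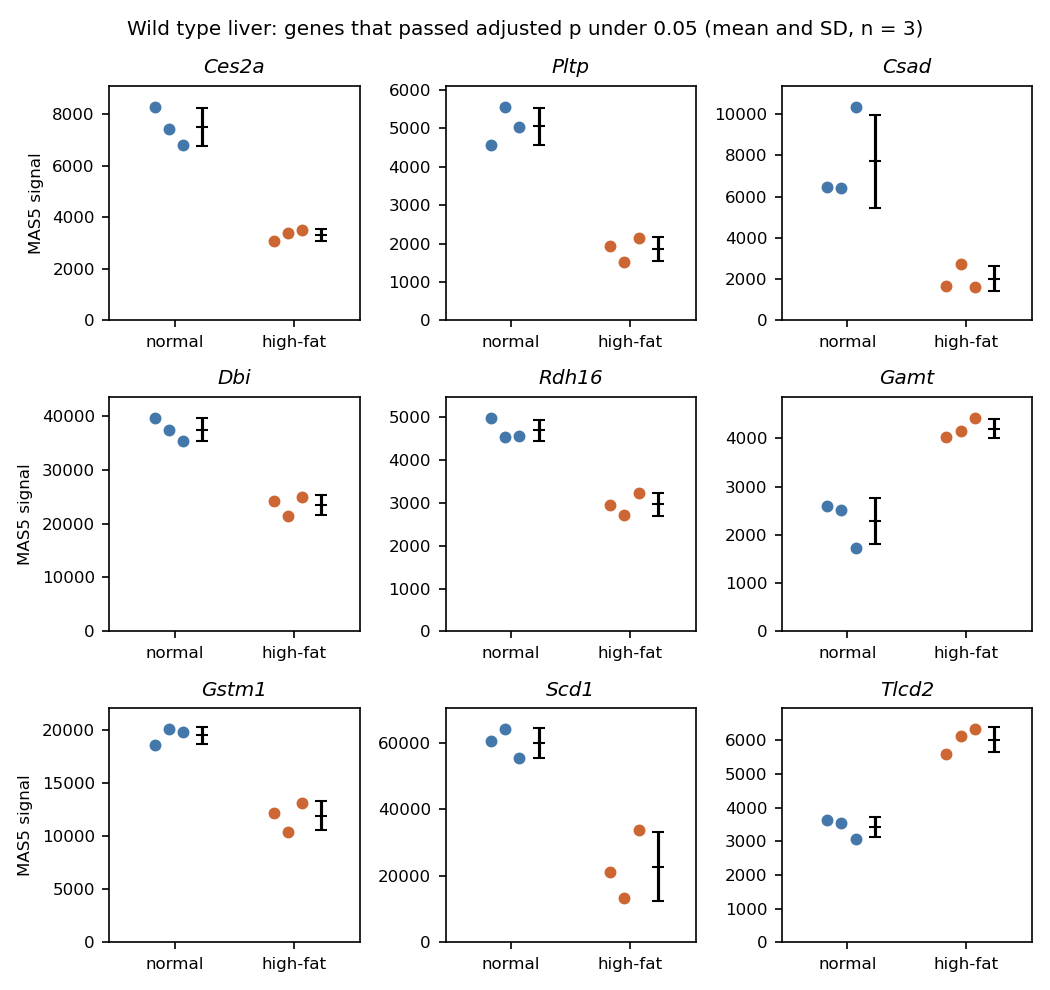
MAS5 signal of the 9 genes with an adjusted p under 0.05 on each wild type array, with the mean and SD of 3 samples beside the points. For every gene the 3 high-fat samples lie on one side of the 3 normal diet samples, lower for 7 genes and higher for Gamt and Tlcd2.

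These 9 calls rested on few arrays. Each gene kept its sign when each of the 12 arrays was left out in turn, and Ces2a and Pltp stayed past the threshold in all 12 refits. Csad did so in 10, Gamt in 9, Dbi in 8, Rdh16 in 7, Gstm1 in 4, and Scd1 and Tlcd2 in 3 each. The number of genes called was 5 without WT normal replicate 1, 5 without WT normal replicate 2 and 4 without WT normal replicate 3. It was 2 without WT high-fat replicate 1 and 3 without WT high-fat replicate 2. Without WT high-fat replicate 3 it was 11, with 7 of the 9 among them, and without aERKO normal replicate 1 it was 20. The Csad call was lost without WT normal replicate 3 or WT high-fat replicate 1 (adjusted p = 0.0763 and 0.106 by limma). The Gamt call was lost without any of the 3 high-fat replicates (adjusted p from 0.0891 to 0.142). The Dbi call was lost without any of WT normal replicates 1 and 2 and WT high-fat replicates 1 and 2 (adjusted p up to 0.101), and the Rdh16 call without these or WT normal replicate 3 (up to 0.155). The Gstm1 and Scd1 calls were lost without any of those 5 arrays or some knockout arrays, with adjusted p up to 0.265 and 0.176. The Tlcd2 call was lost without any single wild type array, among others, with adjusted p up to 0.271. Centring each array on its median, which moved the median difference of all genes to 0.047, left Csad as the 1 call.

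The differences were about as large without the arrays that carried most pancreatic transcripts. Without WT normal replicate 2 and WT high-fat replicate 3 the log2 differences were -1.21 for Ces2a, -1.47 for Pltp, -1.92 for Csad, -0.71 for Dbi, -0.75 for Rdh16, 0.94 for Gamt, -0.77 for Gstm1, -1.79 for Scd1 and 0.81 for Tlcd2. With 2 samples left on each diet, Ces2a, Pltp and Scd1 kept their calls (adjusted p = 0.0307, 0.0447 and 0.0174 by limma). The 10 genes called in that fit also included Cidec, Acot2, Tm7sf2, Hsd3b2, Hsd3b3, Akr1c14 and Tuba8, a list read off after its values were seen. Without all 4 arrays with pancreatic transcripts, which leaves a single WT high-fat array that is assumed to vary like the other groups, the 9 genes kept their signs and 0 genes were called. The log2 differences there were -1.29 for Ces2a, -1.31 for Pltp, -2.26 for Csad, -0.63 for Dbi, -0.69 for Rdh16, 0.92 for Gamt, -0.66 for Gstm1, -1.45 for Scd1 and 0.74 for Tlcd2. In that fit 891 genes had an unadjusted p under 0.05.

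**Figure D3:**
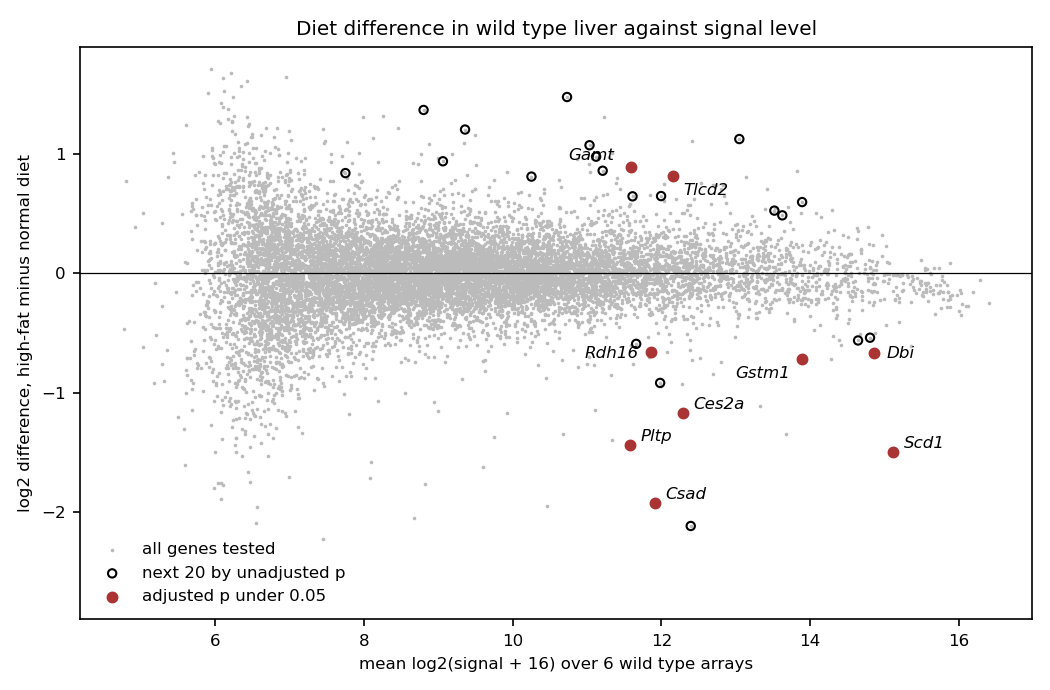
Log2 difference (high-fat minus normal diet) of the 12264 genes tested against their mean log2(signal + 16) over the 6 wild type arrays. The 9 called genes (filled, named) and the next 20 by unadjusted p (open) are mostly bright, and dim genes scatter more widely about 0.

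The 20 genes that came next by p missed the threshold, with adjusted p from 0.0501 to 0.0919, and are given as values. Of them 15 had higher and 5 lower signals on high-fat diet. For all 20 the samples of the diets did not overlap, as was so for 14.3% of genes tested. The 20 were picked by a small p on these same arrays, so the lack of overlap adds no support. Abca8a, an ATP-binding cassette transporter, had 1786, 1625 and 1000 on normal diet, against 2903, 3292 and 2899 on high-fat diet (log2 difference 1.08 ± 0.18). Cyp2c70, which makes the muricholic acids of mouse bile, had 5538, 6991 and 4809 against 12431, 13115 and 11970 (1.13 ± 0.21). The high-fat samples of both genes formed tight groups above the normal ones. Hsd3b3 and Hsd3b2, of the 3-beta-hydroxysteroid dehydrogenase family, were at 0.86 ± 0.17 and 0.94 ± 0.19, and members of this family share much of their sequence. Dpys, which breaks down pyrimidines, was at 0.53 ± 0.10. The aminotransferase Agxt2 was at 0.65 ± 0.13.

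Of the others on the higher side, Ugp2, which makes UDP-glucose for glycogen, had 14267, 12352 and 10642 against 19658, 19168 and 17311 (log2 difference 0.60 ± 0.12). Prnp, the prion protein gene, was at 0.65 ± 0.11, Nrn1, a neuritin, at 0.49 ± 0.09, the chemokine Ccl9 at 0.98 ± 0.19 and the carbonic anhydrase Car1 at 0.84 ± 0.16. Gbp3, a guanylate-binding protein, was at 1.21 ± 0.24. Tmem14a, Limd2 and 9030619P08Rik were at 1.37 ± 0.26, 0.81 ± 0.15 and 1.48 ± 0.29.

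Of the 5 on the lower side, Ehhadh and Tm7sf2 were members of lipid lists and the others of none. Ehhadh, the bifunctional enzyme of peroxisomal oxidation, had 35440, 31321 and 36937 on normal diet, against 25416, 23557 and 22304 on high-fat diet (log2 difference -0.54 ± 0.09). Gpd1, the cytosolic glycerol-3-phosphate dehydrogenase, had 3775, 4136 and 3967 against 2862, 2557 and 2461 (-0.59 ± 0.11). Retsat, a retinol saturase, had 28736, 28119 and 37177 against 19533, 22012 and 21687 (-0.56 ± 0.11). For these genes the normal diet samples were all higher, with WT normal replicate 3 the highest for Ehhadh and Retsat. Tm7sf2, a sterol reductase of cholesterol synthesis, was at -0.92 ± 0.17. Dnase2a, the acid nuclease of lysosomes, had 8795, 9346 and 17088 against 2553, 3738 and 1770 (-2.12 ± 0.38), the largest difference of the 20.

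Groups of genes were then followed by role, with 528 of the 648 genes in 40 lists passing the filter on low signal. For reference, the median log2 difference of all 12264 genes was -0.0048, with 6034 above and 6230 below 0. Of the 9 called genes 8 were in a list, Tlcd2 being the exception. Members named below without a call are given as values. Lists were chosen with earlier results of these data known, and their counts and medians are descriptions without a test.

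In fatty acid synthesis, 18 of 18 listed genes were tested, and Scd1 fell while the other 17 did not pass. The list lay evenly about 0, with 9 members above, 9 below and a median of -0.027 that changed sign in 4 of 27 alternative settings. Elovl6, which elongates palmitate, had 1530, 1823 and 1676 on normal diet, against 956, 1025 and 942 on high-fat diet (log2 difference -0.77 ± 0.16, adjusted p = 0.0982). Me1, malic enzyme, had 5101, 5434 and 5935 against 3429, 3877 and 3702 (-0.58 ± 0.12, adjusted p = 0.104). The citrate carrier Slc25a1 had 2348, 2325 and 2703 against 1826, 1517 and 1891 (-0.49 ± 0.12, adjusted p = 0.220). In all 3 the high-fat samples lay below the normal ones. Srebf1, which encodes SREBP1 itself, differed in the other direction and with overlap, at 1672, 2834 and 1396 against 3646, 2795 and 2588 (0.66 ± 0.27, adjusted p = 0.514). Over the whole list the diets did not overlap for 2 members that were higher on high-fat diet and 6 that were lower. Of all genes tested, 7.03% were higher and 7.31% lower without overlap. Scd2, the other stearoyl-CoA desaturase tested, was dim at 137 to 285 and differed by -0.0023 ± 0.28.

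Of 13 LXR targets, Scd1 and Pltp fell and the others did not pass. The median of the list was 0.055. Cyp7a1, the rate-limiting enzyme of bile acid synthesis, had 2126, 9094 and 9080 on normal diet, against 5898, 12436 and 11202 on high-fat diet. Within each diet its replicate 1 was far below the others, the groups overlapped, and the log2 difference was 0.74 ± 0.45. The sterol exporter Abcg5 was at 0.28 ± 0.12 and Apoe, the remnant ligand, at -0.21 ± 0.08. These values lie on both sides of 0.

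Cholesterol synthesis and uptake had 20 of 24 listed genes tested and 0 called, with 15 above 0 and a median of 0.15. Fdft1, squalene synthase, had 2521, 3953 and 2451 on normal diet, against 4399, 4262 and 5169 on high-fat diet (log2 difference 0.66 ± 0.27). Msmo1, a methyl sterol oxidase, had 1251, 2692 and 1738 against 2070, 3760 and 6235 (1.01 ± 0.42), and Insig1, which retains the sterol sensor in the endoplasmic reticulum, was at 0.50 ± 0.28. The highest Msmo1 value was on WT high-fat replicate 3, an array with pancreatic transcripts. Without that array and WT normal replicate 2 the list median was -0.0065, and the part of those transcripts in it was not tested further.

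Oxidation genes lay slightly below 0 with no call. In mitochondria, 23 of 26 genes of fatty acid oxidation and ketogenesis were tested, 19 were below 0 and the median was -0.13 (-0.061 in the knockout). Slc22a5, the carnitine transporter, had 4940, 3580 and 5621 on normal diet, against 2961, 2360 and 3290 on high-fat diet (log2 difference -0.70 ± 0.19, adjusted p = 0.322). Its groups were apart. Hadha, the alpha subunit of the trifunctional protein, was at -0.26 ± 0.09 and Hadhb, the beta subunit, at 0.35 ± 0.14, on opposite sides of 0. In peroxisomes and microsomes, 19 of 22 were tested, 14 were below 0 and the median was -0.11. Besides Ehhadh, the acyl-CoA thioesterase Acot2 was at -0.76 ± 0.17 (adjusted p = 0.165), the pantetheinase Vnn1 at -0.43 ± 0.10 and the omega-hydroxylase Cyp4a14 at -0.29 ± 0.07. For Cyp4a14 the 3 normal samples (61301, 60612 and 61878) all exceeded the high-fat samples (49155, 50389 and 50813). In each of these lists the samples did not overlap for 7 members, all lower, and 0 higher, where 7.31% of all genes tested were lower and 7.03% higher without overlap.

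Very bright genes as a group sat below 0, and this touches several lists. Among the 100 brightest genes, 89 were below 0 and the median was -0.13 (-0.021 in the knockout). The median over the 1227 brightest genes was -0.0057. Of the tested genes of mitochondrial oxidation 18 of 23 were among these 1227, of peroxisomal oxidation 13 of 19, of lipoproteins 15 of 20 and of acute phase proteins 16 of 22. With quantile normalization, which equalizes the distributions of the arrays, the medians of these 4 lists were -0.11, -0.071, -0.023 and -0.19. Members were also taken relative to the median of a group of genes ranked by signal, an alternative chosen after seeing the data. The list medians were then -0.13, -0.10, -0.11 and -0.27. For most members that group was the 1227 brightest genes, with a median of -0.0057, so this step could hardly move the list medians. It cannot speak to the lower values of the 100 brightest genes.

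Storage, uptake and export of lipids gave 2 called genes, Dbi and Pltp. Of 19 tested lipid droplet proteins and lipases, 17 were below 0 and 0 were called, with a median of -0.24 against 0.097 in the knockout. Plin2, the main droplet coat protein, had 31145, 22080 and 28323 on normal diet, against 18139, 13944 and 22037 on high-fat diet. The highest high-fat value lay just below the lowest normal value (log2 difference -0.60 ± 0.16). Cidec, which fuses droplets, had 524, 199 and 902 against 143, 74.7 and 260 (-1.58 ± 0.47, adjusted p = 0.364). Its groups overlapped through WT normal replicate 2, an array with pancreatic transcripts. Without that array and WT high-fat replicate 3, Cidec was at -2.55 (adjusted p = 0.0418 by limma) and the list median at -0.45. The monoacylglycerol lipase Mgll and the droplet enzyme Hsd17b11 were at -0.37 ± 0.10 and -0.24 ± 0.09.

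Of 14 genes of fatty acid uptake and binding, Dbi fell and the median was 0.017. Fabp1, the abundant fatty acid binding protein of liver, had 94509, 92139 and 96069 on normal diet, against 79659, 81631 and 77054 on high-fat diet (log2 difference -0.25 ± 0.07, adjusted p = 0.356). Cd36, a fatty acid translocase, overlapped between diets at -0.73 ± 0.28. The acyl-CoA synthetases Acsl5 and Acsl4 were at -0.30 ± 0.11 and 0.36 ± 0.14, in opposite directions. Of 20 lipoprotein genes, Pltp fell, 16 were below 0 and the median was -0.10. Scarb1, the receptor for high-density lipoprotein, had 2257, 2110 and 2083 against 3390, 3177 and 2759 (0.52 ± 0.13, adjusted p = 0.220) and stood apart from the rest of the list on the higher side. Apoa2 was at -0.27 ± 0.09 and Apob at -0.22 ± 0.10. Triglyceride synthesis had 11 of 13 genes tested, 0 called and a median of -0.012, and Dgat2, which adds the last acyl chain, was at 0.11 ± 0.08.

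Bile acid genes leaned the other way. All 22 listed were tested, 16 were above 0, 0 were called and the median was 0.16 (-0.030 in the knockout). It stayed between 0.099 and 0.21 in 27 alternative settings. Beside Cyp2c70, Akr1d1, the steroid 5-beta-reductase, had 5762, 4963 and 4652 on normal diet, against 10281, 9312 and 6485 on high-fat diet (log2 difference 0.74 ± 0.16, adjusted p = 0.112). Cyp7b1, the oxysterol hydroxylase of the alternative pathway, had 1964, 1964 and 1416 against 2869, 3415 and 2154 (0.64 ± 0.21, adjusted p = 0.414). For both genes all high-fat samples were higher, and WT high-fat replicate 3 was the lowest of them. Abcb4, which moves phospholipid into bile, was at -0.32 ± 0.11.

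Among 19 genes of taurine, creatine and methionine metabolism, Gamt rose and Csad fell, and no others passed. The median was -0.030. Fmo1, which oxidizes hypotaurine to taurine, was at 0.37 ± 0.12 with overlap. The phosphatidylethanolamine methyltransferase Pemt, the sarcosine dehydrogenase Sardh and the betaine-pathway methyltransferase Bhmt2 were at 0.30 ± 0.11, 0.30 ± 0.12 and 0.22 ± 0.09. Their samples did not overlap, with the higher values on high-fat diet.

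In retinoid metabolism, 19 of 23 genes were tested and Rdh16 fell. Its relative Rdh16f2 had 8082, 9285 and 9514 on normal diet, against 12859, 13477 and 12726 on high-fat diet (log2 difference 0.54 ± 0.12, adjusted p = 0.135). These relatives thus stood on opposite sides of 0, each with its diets apart. Rdh11 was at -0.61 ± 0.23. Lrat, which makes retinyl esters and marks stellate cells, was at 0.70 ± 0.25 and Ttr, a carrier of retinol-binding protein, at -0.27 ± 0.10. The median of the list was -0.14.

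Within the carboxylesterase family, 10 of 18 listed genes were tested, Ces2a fell and the other 9 did not pass. Ces2e had 2694, 2649 and 2091 on normal diet, against 1283, 1192 and 1897 on high-fat diet (log2 difference -0.78 ± 0.18, adjusted p = 0.179). Ces1e and Ces1c were at -0.38 ± 0.12 and -0.16 ± 0.08, and their diets did not overlap. Ces1d and Ces2g were at 0.23 ± 0.09 and 0.14 ± 0.16, so members lay on both sides of 0. Of 20 glutathione transferase genes, Gstm1 fell. The mu class members Gstm2, Gstm3, Gstm6 and Gstm4 were at -0.50 ± 0.20, -0.61 ± 0.24, -0.32 ± 0.22 and -0.18 ± 0.18, and Gstm5 and Gstm7 at 0.18 ± 0.14 and 0.43 ± 0.20. Gstp1, of the pi class, had 25914, 25752 and 29090 against 20723, 19501 and 20049 (-0.42 ± 0.10, adjusted p = 0.169). Gsta3, of the alpha class, was at 0.38 ± 0.11, and Gsta2, of the same class, at -0.95 ± 0.26.

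**Figure D4:**
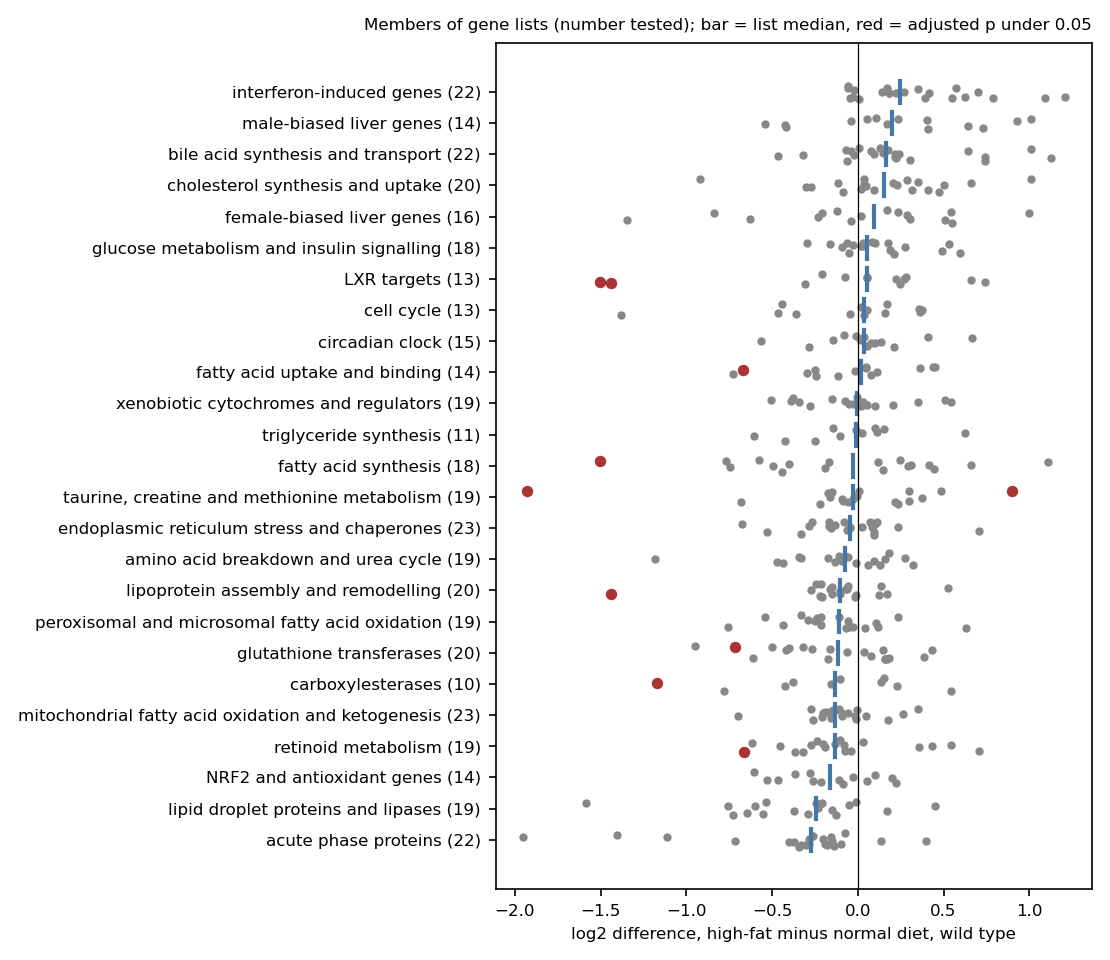
Log2 difference (high-fat minus normal diet, wild type) of each tested member of the pathway and family lists with at least 5 genes tested, 1 point per gene, with the number tested in parentheses and the list median as a bar. Called members are red; most lists lie about 0, from -0.27 for acute phase proteins to 0.24 for interferon-induced genes.

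Acute phase proteins, which liver secretes in inflammation, had a median of -0.27 (0.048 in the knockout). Of 22 tested, 20 were below 0 and 0 were called. The mean log2 signal of the list was 13.78, 13.64 and 12.97 on normal diet, against 13.09, 13.10 and 13.05 on high-fat diet. WT normal replicate 3 thus lay below all high-fat arrays, and the higher mean on normal diet rests on WT normal replicates 1 and 2. Orm1, an orosomucoid, had 30240, 28734 and 19181 on normal diet, against 15382, 14054 and 17432 on high-fat diet (log2 difference -0.71 ± 0.24). Orm2 had 4652, 5379 and 841 against 1003, 395 and 871 (-1.95 ± 0.70, adjusted p = 0.455). WT normal replicate 3 was thus low for both and, for Orm2, within the range of the high-fat samples. The fibrinogen chains Fga and Fgg were at -0.40 ± 0.16 and -0.34 ± 0.13.

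Interferon-induced genes had a median of 0.24 (0.23 in the knockout), with 17 of 22 above 0 and 0 called. Gbp3 had 466, 615 and 250 on normal diet, against 928, 1025 and 997 on high-fat diet. Ifit1, an antiviral RNA-binding protein, had 400, 416 and 172 against 723, 712 and 587 (log2 difference 1.09 ± 0.32). The deubiquitylating enzyme Usp18 had 808, 595 and 534 against 1147, 1090 and 1093 (0.79 ± 0.23). The high-fat samples were all higher for these 3 genes, and WT normal replicate 3 was the lowest. The median was 0.094 without that array, 0.57 without the arrays with most pancreatic transcripts in each group and 0.58 without all 4 arrays that carried them.

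No gene of the remaining pathway lists was called. Endoplasmic reticulum chaperones (23 tested, 0 called, median -0.047) included Creld2 at -0.68 ± 0.18 and Hspa5, the main chaperone of that compartment, at -0.28 ± 0.15. Antioxidant genes (14 tested, 0 called, median -0.16) included the reductases Txnrd1 at -0.37 ± 0.12 and Srxn1 at -0.46 ± 0.17. Txnrd1 changed sign when the probe sets of a gene were averaged. In glucose metabolism (18 tested, 0 called, median 0.056), Slc2a2, the glucose transporter of hepatocytes, had 15781, 20459 and 14286 on normal diet, against 23173, 27494 and 21777 on high-fat diet (log2 difference 0.53 ± 0.15). In xenobiotic metabolism (19 tested, 0 called, median -0.0055), Cyp2e1 was at -0.34 ± 0.11 and Cyp2b9 at 0.55 ± 0.17. Amino acid and urea cycle genes (19 tested, 0 called) had a median of -0.077, clock genes (15, 0 called) 0.035 and cell cycle genes (13, 0 called) 0.037. Female-biased and male-biased liver genes (16 and 14 tested, 0 called) had medians of 0.095 and 0.20.

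Cell type markers gave 0 calls in any list. All 8 tested hepatocyte markers were below 0 (median -0.22), and 8 of 8 were among the 1227 brightest genes. With quantile normalization the median of this list was -0.051. Alb was at -0.31 ± 0.10, Apoa1 at -0.056 ± 0.08 and Hnf4a at -0.22 ± 0.14. Macrophage and Kupffer cell markers (13 tested) had a median of -0.020, and 1 of them, the scavenger receptor Marco, had 586, 1069 and 670 on normal diet, against 284, 317 and 387 on high-fat diet (log2 difference -1.16 ± 0.29, adjusted p = 0.258). Stellate cell markers (12 tested) had 11 above 0 and a median of 0.20, with Colec11 at 0.44 ± 0.13 and the collagen Col1a2 at 0.48 ± 0.16. The 1 member below 0 was at -1.20, a larger difference than that of any member above 0. Pericentral and periportal hepatocyte markers (11 and 8 tested) had medians of -0.042 and -0.12, sinusoidal endothelial markers (10) 0.096, lymphocyte markers (7) 0.017 and neutrophil markers (6) 0.20. Of the pericentral markers, 3 were above 0 and 8 below. Those above were Gulo and Lect2, at 0.75 ± 0.18 and 0.71 ± 0.20, and Glul, the glutamine synthetase that defines the zone, at 0.16 ± 0.15. Among those below, Cyp2e1 was at -0.34 ± 0.11, and its diets did not overlap.

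In the knockout the diet comparison called 59 genes (0.481% of those tested, with 41 or 0.334% higher and 18 or 0.147% lower), and it uses other arrays but the same estimate of the spread. Of its arrays, aERKO normal replicate 1 carried pancreatic transcripts (a summed acinar signal of 158381, against 1454 to 1920 on the other 5), and muscle genes had mean log2 signals of 10.5 there and 8.57 on aERKO high-fat replicate 2, against 5.44 to 7.05 on the rest; their part in the knockout values was not tested. Ces2a, Pltp, Gamt and Tlcd2 were called there too, in the same direction. They are 44.4% of the 9 wild type calls and 6.78% of the 59. Ces2a differed by -1.22 in the knockout (adjusted p = 0.000483), Pltp by -1.09 (0.0153), Gamt by 0.85 (0.0144) and Tlcd2 by 0.99 (0.00484). The remaining 5 had the same sign and smaller values there, with Csad at -0.92, Rdh16 at -0.35, Scd1 at -0.26, Gstm1 at -0.24 and Dbi at -0.21. All 20 of the next genes had the same sign in the knockout as well. The share of all genes tested with the same sign in both genotypes was not computed. Of the 20, 6 were called in the knockout, where 0.481% of all genes tested were. They were Ehhadh, Prnp, Tmem14a, Hsd3b3, Hsd3b2 and 9030619P08Rik.

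The difference between the diet effects was tested directly, and 0 genes (0.0%) were called for it by limma, while 728 genes (5.94%) had an unadjusted p under 0.05. For Scd1, subtracting the wild type diet effect from that of the knockout gave 1.24 ± 0.34 on the log2 scale, with a 95% interval from 0.50 to 1.98 (adjusted p = 0.582). For Csad it was 1.01 ± 0.37 (0.21 to 1.81), for Gstm1 0.47 ± 0.16 (0.12 to 0.82), for Dbi 0.46 ± 0.13 (0.18 to 0.74) and for Rdh16 0.31 ± 0.14 (0.01 to 0.61). These 5 intervals lie above 0 one by one, but adjusted over all genes the p-values of the 9 ran from 0.582 to 0.986. The 5 were called in wild type and not in the knockout, and the wild type effect that selected them is part of this difference. Their intervals are therefore partly settled by the selection and cannot show a weaker response in the knockout. For Ces2a the difference was -0.054 ± 0.18 (-0.43 to 0.32), for Pltp 0.35 ± 0.25 (-0.18 to 0.89), for Gamt -0.046 ± 0.19 (-0.46 to 0.37) and for Tlcd2 0.17 ± 0.19 (-0.24 to 0.59). Intervals of this width leave room for differences of either sign.

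**Figure D5:**
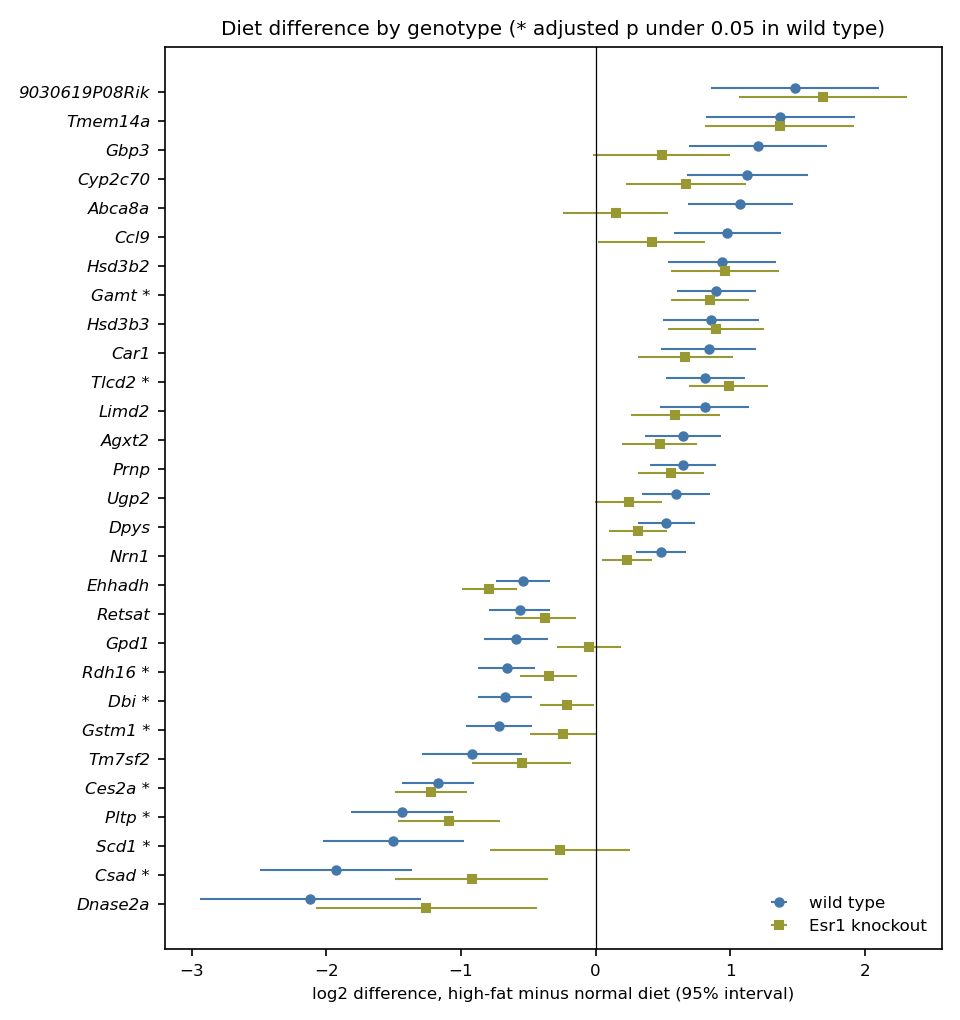
Log2 difference (high-fat minus normal diet) with 95% intervals for the 9 called genes (starred) and the next 20 by p, in wild type (circles) and Esr1 knockout liver (squares). All 29 have the same sign in both genotypes, a share that was not computed over all genes tested. Scd1 differs by -1.50 in wild type and -0.26 in the knockout.

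The largest differences without overlap that were not called belonged mostly to dim genes. On the lower side these were Alpi, Dnase2a, given above, Atoh8, Anks3 and Asic2. Alpi, the intestinal alkaline phosphatase, had 112, 2027 and 190 on normal diet, against 85.3, 29.4 and 97.8 on high-fat diet (log2 difference -2.23 ± 0.78), so that its size rests on WT normal replicate 2, an array with pancreatic transcripts. Atoh8 had 125, 282 and 155 against 16.6, 67.3 and 18.3 (-2.09 ± 0.62), Anks3 was at -1.96 ± 0.54 and Asic2 at -1.90 ± 0.56. On the higher side they were Rell2, Has1, Pde6c, Npy and Magea7-ps, from 1.61 ± 0.55 for Magea7-ps to 1.72 ± 0.51 for Rell2. All of these except Dnase2a had signals near or below the array medians on at least 1 diet, and their sizes are imprecise.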

How the data were processed

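Total RNA from 12 liver samples was labelled with a 3' IVT kit and hybridised to 1-colour Affymetrix mouse arrays, per the labels' protocols. The authors deposited MAS5 signal intensity values, linear and not log-transformed, made with Affymetrix Expression Console per the submitters' processing notes; every array had a trimmed mean of 500, and the genome build is not given in the sources used here. Of 45101 probe sets, 34958 carried 1 gene symbol in the platform annotation, 932 several and 9211 none. The brightest probe set stood for each of 18194 genes, and testing was limited to 12264 genes, those brighter than the median probe set of the array on 3 or more of 12 arrays.

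Values were log2(signal + 16), so fold changes understate those of dim genes. The 4 groups were fitted together in limma 3.58.1 (R 4.3.3) with an intensity trend (8 residual and 5.85 prior degrees of freedom), Benjamini-Hochberg adjustment over all genes tested and a threshold of 0.05. The median SE of the wild type diet difference was 0.202. Precision is limited by the number of arrays. The script was tested on simulated data. Summaries used Python 3.11.15 with pandas 2.3.3.

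Genes named were those called, the next 20 by p, up to 4 further members per list by p, members of the families of called genes, checks of tissue and labels, and the 5 largest uncalled differences without overlap in each direction; Cpa1 and the genes called after leaving out arrays were chosen after their values were seen. Members and lists were chosen with earlier results of these data known. List genes without a probe set were not analysed here. Alternatives changed the pseudocount, filter, normalization, probe set rule, spread model and arrays used.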

Additional observations from a re-analysis of the deposited data

How the results depend on the processing

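The 9 genes called in wild type kept their sign in all 26 alternatives. Against 9 calls, there were 5 with no filter on low signal, 1 with median centring, 0 with no intensity trend (938 genes at an unadjusted p under 0.05 by limma, lowest adjusted p 0.0853), 21 with array quality weights and 0 without the 4 arrays with pancreatic transcripts (891 at an unadjusted p under 0.05). Leaving out 1 array at a time gave 2 to 20 calls, with 5, 5 and 4 without WT normal replicates 1, 2 and 3. There were 2, 3 and 11 without WT high-fat replicates 1, 2 and 3, and 20 without aERKO normal replicate 1. Of the calls, 22.2% were higher, against 47.6% with array weights, 14.3% with quantile normalization, 11.1% with the acinar score as a covariate and 0.0% with median centring. Calls for the difference between genotypes stayed at 0 except for 1 gene (Igfbp2) with the acinar score as a covariate and 2 (Cyp2b13 and Leap2) without aERKO high-fat replicate 3, so that leaving out 1 array gave 0 to 2. With the mean of probe sets, Txnrd1 was at 0.038 and Agpat1 at -0.12, both with the sign reversed; the cause of these changes was not tested.

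With the replicate number as a block, 6 genes were called, 4 of them among the 9. Deviations of samples with the same number correlated at 0.115, -0.0171 and -0.112, so the numbers were not taken to pair the samples.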
